A study of Mus musculus with 12 samples.

Results

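The genes described are 10 members of the NRF2 response and of glutathione synthesis: Nfe2l2, Nqo1, Gclc, Gclm, Gss, Gsr, Srxn1, Txnrd1, Hmox1 and Ugdh. A gene entered when a probe set of the deposited value table was annotated to its symbol and to no other symbol. All 10 were found, each with 1 probe set, among 19938 genes measured in this way. Liver RNA was measured on 12 arrays of the Affymetrix Mouse Gene 1.0 ST design. The mice were C57BL/6N males killed at 110 days of age after food had been withheld for 6 hours. They were wild type (WT) or homozygous for a knock-in allele (KI), Lmna G609G/G609G, which models Hutchinson-Gilford progeria, and both genotypes came from matings of heterozygous carriers. From an age of 7 weeks they were fed a control diet (CD) or had their methionine restricted (MR). The composition of the diets is not used here. Every diet group received pellets both whole and crushed. This gave the 4 groups WT_CD, WT_MR, KI_CD and KI_MR with 3 arrays each. Mice were housed by genotype, so cage and genotype cannot be told apart. The labels do not state that each array is a separate animal, and the p-values measure only the spread between these samples.

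NRF2, encoded by Nfe2l2, is a transcription factor that the adaptor protein KEAP1 binds in the cytoplasm and hands to a ubiquitin ligase for degradation. Oxidants and electrophiles modify cysteines of KEAP1, NRF2 then accumulates in the nucleus, pairs with a small MAF protein and binds antioxidant response elements near its target genes. Among these targets are the enzymes that make and recycle glutathione, the tripeptide of glutamate, cysteine and glycine that is the main small thiol of hepatocytes. The liver can make the cysteine for glutathione from methionine through transsulfuration, and dietary methionine therefore bears on the supply of this substrate.

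Promoter sequences are shown for Ugdh, Gclm and Nqo1, since the first holds 2 matches to the core of the antioxidant response element, the second holds 1, and the third, the gene with the largest difference between diets, holds none. The core was spelled TGACNNNGC and searched on both strands of RefSeq promoter windows (GRCm38.p6), from 250 bases before to 50 bases after a transcript start. Capitals mark the fixed letters of a match. Each sequence runs 5′ to 3′ on the strand of the gene and ends before the first start that RefSeq gives for the gene.
Ugdh, chr5:65435843-65436092, minus strand: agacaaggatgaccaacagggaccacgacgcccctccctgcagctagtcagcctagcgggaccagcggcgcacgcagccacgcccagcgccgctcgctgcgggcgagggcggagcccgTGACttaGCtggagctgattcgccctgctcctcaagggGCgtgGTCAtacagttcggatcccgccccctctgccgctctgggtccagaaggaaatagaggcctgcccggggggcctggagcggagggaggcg
Gclm, chr3:122245307-122245486, plus strand: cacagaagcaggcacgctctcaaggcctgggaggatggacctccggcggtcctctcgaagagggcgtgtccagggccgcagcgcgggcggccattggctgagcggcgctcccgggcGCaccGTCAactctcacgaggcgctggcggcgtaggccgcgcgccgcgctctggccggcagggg
Nqo1, chr8:107403206-107403455, minus strand: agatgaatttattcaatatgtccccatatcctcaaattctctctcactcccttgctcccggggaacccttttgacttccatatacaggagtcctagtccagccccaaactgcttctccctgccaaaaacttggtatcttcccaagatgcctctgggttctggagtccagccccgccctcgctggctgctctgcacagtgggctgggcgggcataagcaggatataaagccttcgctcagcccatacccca

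In Ugdh the matches begin 132 bases before the start of the window's transcript (TGACTTAGC) and 94 bases before it (GCGTGGTCA, a match on the opposite strand). In Gclm the match (GCACCGTCA, opposite strand) begins 134 bases before the start of the window's transcript, which lies downstream of the first RefSeq start, where the printed sequence ends. Of the other members in the promoter table, Nfe2l2 itself held TGACTCCGC at 240 bases before its start, Txnrd1 held GCTTTGTCA at 92 bases before 1 of its 3 listed starts, and Srxn1 held GCTAGGTCA at 28 bases after its start. Gss, like Nqo1, held no match. This made 5 of 7 members with a match (71.4%), against 14.0% of all 27025 genes in the table and 9 of the 36 related genes in it that are described below. Gclc, Gsr and Hmox1 were not searched. A match describes the letters of the window and is not evidence of a bound site, and its absence says only that these letters are not in the 300 bases searched.

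The deposited values are linear probe set intensities from 10 to 20042 units, with array medians of 82 to 90 units. Changes are differences of log2 intensity ± SE from 1 limma fit over all 19938 genes and 12 arrays, and a gene is said to have risen or fallen where its Benjamini-Hochberg adjusted p over all genes was under 0.05. Intensities of different probe sets are not compared. The number of arrays limits the precision. In bulk tissue, fewer cells of a type and less RNA per cell cannot be told apart. All 10 hepatocyte markers checked, such as Alb and Apoa1, were measured, and their summed intensity ranged from 103595 to 119561 over the arrays. No marker of 8 cell type lists passed the test in the 4 pairwise comparisons.

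Array 1 of KI_CD stood apart from the other arrays. Across genes it correlated with the other arrays of its group at a mean r of 0.986, against 0.989 to 0.994 for the remaining 11 arrays. It was the highest of the 3 KI_CD arrays for 9 of the 10 members, while 34.9% of all genes were highest there. Its median deviation over the members from the mean of the other KI_CD arrays was 0.58 (log2). The deviation reached 1.13 for Srxn1, 1.11 for Gss, 0.93 for Nqo1, 0.86 for Ugdh and 0.83 for Hmox1, and was -0.18 for Gclm. KI_CD array 2 was the lowest of its group for 6 members, with a median deviation of -0.39, and deviated by -1.01 for Nqo1. Within KI_MR, array 1 was the highest for 7 members and array 2 the lowest for 7. Changes that rest on KI_CD are therefore also given without array 1 of that group, singly or as a range.

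**Figure D1:**
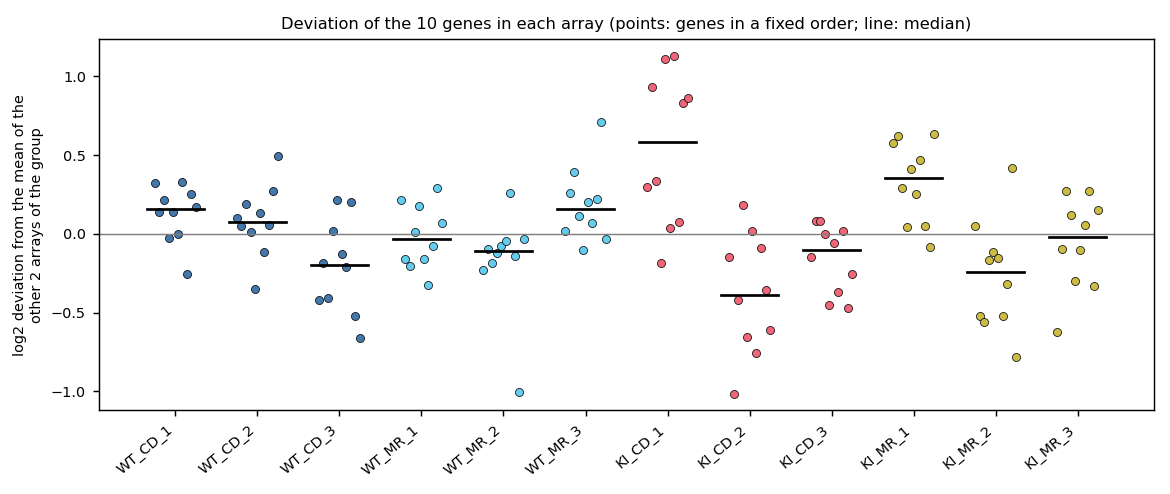
Deviation of each of the 10 genes (points, in a fixed order of genes) in each of the 12 arrays, as log2 difference from the mean of the other 2 arrays of the same group, with the median as a line. KI_CD array 1 has the highest median, 0.58, and 5 of its genes lie above 0.8.

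Methionine restriction in wild-type liver raised 2 of the 10 genes, Nqo1 and Gsr, and lowered none. Nqo1, a quinone reductase and a widely used readout of NRF2 activity, rose by 2.21 ± 0.27 (log2; limma adjusted p = 0.00686; n = 3 arrays per group). Gsr, which reduces oxidised glutathione back to its thiol form, rose by 0.57 ± 0.09 (limma adjusted p = 0.0270; n = 3 arrays per group). Of all genes, 0.326% passed this test, and 0.211% passed it as higher. The arrays of WT_MR lay wholly above those of WT_CD for 8 of the 10 members, all but Nfe2l2 and Hmox1, where 6.35% of all genes were higher without overlap. The median change of the members was 0.54, with 9 of 10 above 0, and the median of all genes was -0.0041. At an unadjusted p under 0.05 stood 8 of the 10 members and 8.19% of all genes. Without KI_CD array 1, which enters this comparison only through the shared estimate of the spread, 4 members passed: Nqo1 (adjusted p = 0.000822), Gss (0.0144), Gsr (0.0174) and Ugdh (0.0199). In that fit 199 of all 19938 genes were called, against 65 with all arrays. With any of the 6 WT arrays left out, Nqo1 was the 1 member that passed, and the adjusted p of Gsr reached 0.120 at most.

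In knock-in liver the diet comparison gave 0 of 10 members past the limma test, with 3 of 10 at an unadjusted p under 0.05 (7.78% of all genes) and 0.176% of all genes called. The largest change was that of Nqo1, 0.74 ± 0.27 (limma adjusted p = 0.478; n = 3 arrays per group). Only the Gclm arrays did not overlap, higher in KI_MR, while 10.7% of all genes had groups without overlap in either direction. The members' median was 0.15, with 8 of 10 above 0, against -0.02 for all genes. Leaving out KI_CD array 1 gave a median of 0.35 with 9 of 10 above 0, and again 0 members passed.

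The diet by genotype interaction, which is the diet change in KI minus that in WT, tests whether the diet responses differed. No member passed by limma, as for all genes, of which 0% were called. At an unadjusted p under 0.05 stood 4 of the 10 members and 4.13% of all genes. These were Nqo1 (-1.47 ± 0.39), Gsr (-0.44 ± 0.13), Gss (-0.97 ± 0.36) and Ugdh (-0.97 ± 0.40), each with a limma adjusted p = 1. All 4 were below 0, which is a smaller diet difference in KI, as were 8 of the 10 members, with a median of -0.39 against -0.01 for all genes. With KI_CD array 1 left out the values were -1.16 for Nqo1, -0.43 for Gsr, -0.60 for Gss and -0.68 for Ugdh. With KI_CD array 2 left out they were -1.81 for Nqo1 and -1.19 for Gss. Over the 12 fits that left out 1 array, Gsr ran from -0.53 to -0.37 and Ugdh from -1.18 to -0.68. A different diet response in KI and WT was therefore not shown for any member at this number of arrays.

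Averaged over both genotypes, restriction raised 2 of the 10 members, again Nqo1 (1.48 ± 0.19, limma adjusted p = 0.00541) and Gsr (0.35 ± 0.06, limma adjusted p = 0.0262), with n = 6 arrays per diet in the fit. Of all genes 1.21% were called, and 0.607% as higher. Ugdh (0.90 ± 0.20, limma adjusted p = 0.0604) and Gclm (0.23 ± 0.06, or 0.20 without KI_CD array 1, limma adjusted p = 0.0864) came next. Without KI_CD array 1, 5 members passed: Nqo1 (1.63), Ugdh (1.04, adjusted p = 0.0114), Gss (0.55, adjusted p = 0.0171), Gsr (0.35) and Srxn1 (0.61, adjusted p = 0.0329). Without KI_MR array 2, 4 members passed. Calls among all 19938 genes were 241 with all arrays, 470 without KI_CD array 1 and 274 without KI_MR array 2. The call of Gsr was lost in 7 of 12 fits that left out 1 array, WT_CD array 1 or 3, WT_MR array 2, KI_CD array 2 or 3, or KI_MR array 1 or 3, with an adjusted p of at most 0.0724. Nqo1 passed in all 12 of them.

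The knock-in on control diet gave 0 of 10 members past the limma test, with 3 of 10 at an unadjusted p under 0.05 (11.2% of all genes) and 0.0802% of all genes called. The 3 were Nqo1, Gsr and Hmox1, which also were the members whose KI_CD arrays lay wholly above the WT_CD arrays. Groups without overlap in either direction were found for 19.0% of all genes. Nqo1 differed by 1.01 ± 0.27 (limma adjusted p = 0.213; n = 3 arrays per group), Hmox1 by 0.75 ± 0.30 (0.397) and Gsr by 0.29 ± 0.09 (0.288). In the fit without KI_CD array 1 these were 0.70, 0.47 and 0.28, and the median of the members went from 0.23 to 0.07. Without KI_CD array 2 the value of Nqo1 was 1.35.

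On the restricted diet the knock-in again gave 0 of 10 members past the limma test, with 1 of 10 at an unadjusted p under 0.05 (14.1% of all genes) and 0.471% of all genes called. That member was Ugdh, at -1.03 ± 0.28 (limma adjusted p = 0.136; n = 3 arrays per group). The KI_MR arrays of Ugdh and Gss lay wholly below those of WT_MR, and 16.3% of all genes had groups without overlap in either direction. The members' median was -0.25 with 9 of 10 below 0, against -0.04 for all genes. Averaged over both diets, 0 of 10 members and 2.81% of all genes passed for genotype, and 2 members, Ugdh (-0.55 ± 0.20) and Hmox1 (0.58 ± 0.21), had an unadjusted p under 0.05 (22.0% of all genes). Their limma adjusted p-values were 0.155 and 0.159, and without KI_CD array 1 the values were -0.69 and 0.44.

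**Figure D2:**
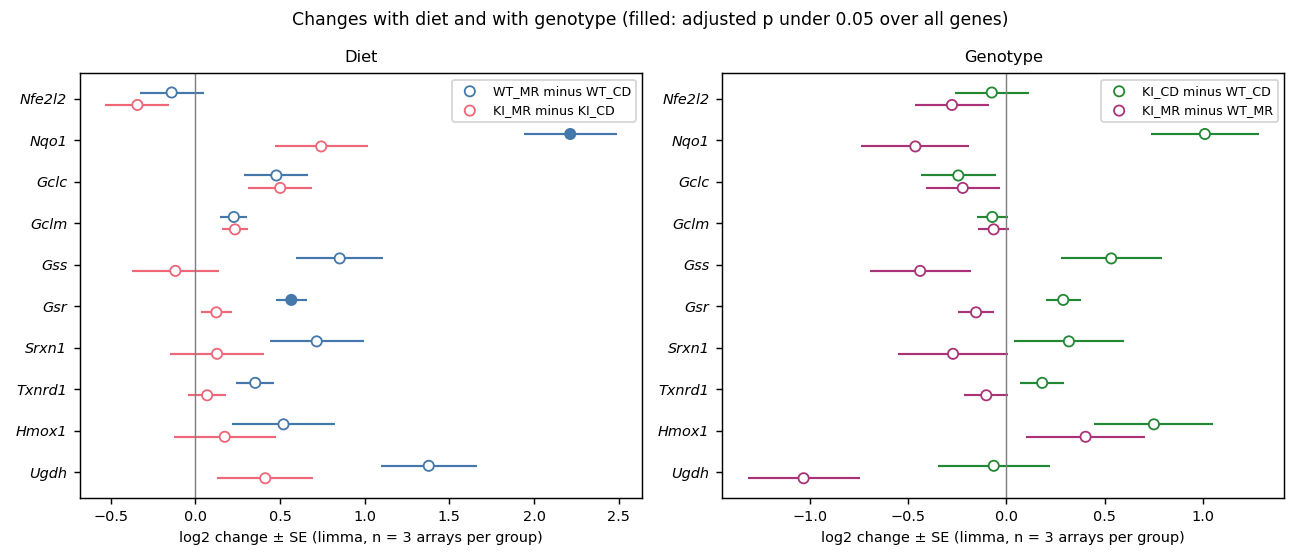
Log2 change ± SE of the 10 genes in the limma fit, for diet within each genotype (left) and genotype within each diet (right), with n = 3 arrays per group. Filled points, Nqo1 at 2.21 and Gsr at 0.57 for WT_MR minus WT_CD, have an adjusted p under 0.05 over all genes, and the open points do not.

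Nfe2l2, the gene of the regulator itself, was measured at 1851, 1669 and 1314 units in WT_CD and at 1597, 1303 and 1458 units in WT_MR. In KI_CD it gave 1738, 1415 and 1413 units, and in KI_MR 1559, 1221 and 896 units. The groups overlapped in each of the 4 pairwise comparisons, and no neighbours in the order of the group means, KI_MR, WT_MR, KI_CD, WT_CD, differed by more than the larger of their SDs. Its change with diet was -0.14 ± 0.19 in WT and -0.34 ± 0.19 in KI (-0.24 without KI_CD array 1), making it the 1 member below 0 in the WT comparison. It is regulated largely through the stability of its protein, which arrays do not measure.

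Gclc, the catalytic subunit of glutamate-cysteine ligase, which carries out the rate-limiting step of glutathione synthesis, was measured at 4012, 3969 and 3014 units in WT_CD and 4603, 4648 and 6065 units in WT_MR. Every WT_MR array lay above every WT_CD array, with a change of 0.48 ± 0.19 (limma adjusted p = 0.496; n = 3 arrays per group). In KI_CD it gave 3586, 2528 and 3183 units and in KI_MR 4960, 3347 and 4926 units. KI_MR array 2 lay within the KI_CD range, and the change in KI, 0.50 ± 0.19, differed from that in WT by 0.02 ± 0.27. With KI_CD array 1 left out these were 0.61 and 0.14, and the averaged diet change was 0.55. With all arrays the averaged diet change was 0.49 ± 0.13 (limma adjusted p = 0.130), and only the fit without KI_MR array 2 (0.58) took it past the test among the 12 fits that left out 1 array.

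Gclm, the modifier subunit that raises the activity of Gclc, had the smallest spread of the members in WT_CD, with 4029, 4095 and 4105 units. WT_MR gave 4799, 4505 and 5024 units, KI_CD 3564, 4220 and 3876 units, and KI_MR 4651, 4228 and 4822 units. Both MR groups lay wholly above the CD group of their genotype, in KI by a margin of 8 units between the lowest KI_MR and the highest KI_CD array. The changes were small and alike in size, 0.23 ± 0.08 in WT (limma adjusted p = 0.392) and 0.23 ± 0.08 in KI (limma adjusted p = 0.426), with n = 3 arrays per group. Their difference was 0.01 ± 0.11, and the fit did not call either. Leaving out KI_CD array 1 gave 0.17 for the change in KI and -0.05 for the difference.

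Gss, glutathione synthetase, adds glycine in the last step of synthesis. It was measured at 593, 473 and 615 units in WT_CD and at 1091, 970 and 959 units in WT_MR, a change of 0.85 ± 0.26 (limma adjusted p = 0.275; n = 3 arrays per group). The WT groups did not overlap. KI_CD gave 1344, 594 and 653 units, so that its array 1 was the highest of all 12 arrays, and KI_MR gave 898, 703 and 646 units. The diet change in KI was -0.12 ± 0.26 with KI_CD array 1 and 0.25 without it, and the genotype difference on CD was 0.53 ± 0.26 with it and 0.16 without it.

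Gsr, glutathione reductase, gave 845, 898 and 796 units in WT_CD and 1162, 1227 and 1376 units in WT_MR, a 1.48-fold rise whose test is given above. In KI_CD the arrays lay close together at 1051, 1042 and 1004 units, above every WT_CD array and below every WT_MR array. KI_MR gave 1264, 1049 and 1073 units, of which array 2 lay within the KI_CD range. In the order of the group means, WT_CD, KI_CD, KI_MR, WT_MR, WT_CD and KI_CD did not overlap, and the other neighbours did. KI_CD array 1 deviated by 0.04 only, and the diet change in KI was 0.12 ± 0.09, or 0.14 without it.

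Txnrd1, the cytosolic thioredoxin reductase that uses NADPH to keep thioredoxin reduced, gave 467, 539 and 576 units in WT_CD and 648, 628 and 743 units in WT_MR. The groups did not overlap, and the change was 0.35 ± 0.11 (limma adjusted p = 0.311; n = 3 arrays per group). KI_CD gave 617, 571 and 600 units and KI_MR 639, 540 and 708 units, which overlapped and differed by 0.07 ± 0.11, or 0.09 without KI_CD array 1.

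Srxn1, sulfiredoxin, restores overoxidised peroxiredoxins. It gave 418, 341 and 326 units in WT_CD and 508, 665 and 610 units in WT_MR, without overlap, a change of 0.72 ± 0.28 (limma adjusted p = 0.485; n = 3 arrays per group). KI_CD gave 754, 316 and 377 units, its array 1 being the highest of all 12, and KI_MR gave 608, 384 and 502 units. The diet change in KI was 0.13 ± 0.28, and 0.50 without KI_CD array 1. The genotype difference on CD, 0.32 ± 0.28, had the opposite sign without that array, -0.06.

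Nqo1 was dim in WT_CD, with 50, 48 and 43 units, of which 2 arrays lay under the lower quartile of gene levels of their array (45 to 51 units over the arrays). WT_MR gave 202, 208 and 245 units. The measured ratio was 4.64-fold. With the dim arrays set at their lower quartile, WT_MR was at least 4.47-fold higher than WT_CD. KI_CD gave 145, 59 and 98 units, a spread that reached from near the WT_CD level to the KI_MR range. With its 3 arrays kept and the dim WT_CD arrays set at their lower quartile, the mean of KI_CD was 1.94-fold that of WT_CD. The measured difference was not called (1.01, log2, limma adjusted p = 0.213). It was 0.70 without KI_CD array 1 and 1.35 without KI_CD array 2. KI_MR gave 210, 124 and 151 units. The means thus ran from WT_CD (47.0 ± 3.61 units, SD, n = 3) through KI_CD (101 ± 43.1) and KI_MR (162 ± 44.0) to WT_MR (218 ± 23.3). WT_CD and KI_CD did not overlap, while KI_CD and KI_MR overlapped, as did KI_MR and WT_MR. Without KI_CD array 1 the diet change in KI was 1.05 (limma adjusted p = 0.108), and without KI_CD array 2 it was 0.40. The summed intensity of 4 cholangiocyte markers was 345 to 394 units in WT_CD, 327 to 355 in WT_MR, 328 to 545 in KI_CD and 338 to 744 in KI_MR, with no defining marker at 0, and 1 of 4 was above 0 for diet in WT. The part of bile duct cells in the level of Nqo1 was not tested.

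Hmox1, the inducible heme oxygenase, is a target of NRF2 that the repressor BACH1 also controls, and macrophages that clear red cells express it strongly. It gave 430, 433 and 300 units in WT_CD, 627, 345 and 762 units in WT_MR, 942, 545 and 516 units in KI_CD, and 696, 879 and 621 units in KI_MR. Every KI array lay above every WT_CD array, and the WT_MR arrays spread over both ranges. The diet change in WT was 0.52 ± 0.30 (limma adjusted p = 0.769; n = 3 arrays per group). The genotype difference was 0.75 ± 0.30 on CD, or 0.47 without KI_CD array 1, and 0.40 ± 0.30 on MR. The summed intensity of 11 Kupffer cell and macrophage markers was 9063 to 11080 units in WT_CD, 6988 to 12646 in WT_MR, 6859 to 8771 in KI_CD and 7498 to 8663 in KI_MR. In KI_CD minus WT_CD 1 of the 11 markers was above 0, with a median of -0.33, and none was at 0. Alas2, which makes heme precursors in red cell precursors, was at -1.24 in KI_CD minus WT_CD and -1.18 in WT_MR minus WT_CD, neither called. Of 5 erythroid markers listed 2 were measured, and the other, Slc4a1, was at -0.11 and -0.010 in these comparisons. The part of these cells in the level of Hmox1 was not tested.

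Ugdh, UDP-glucose dehydrogenase, makes the UDP-glucuronate used for glucuronidation. It gave 2087, 2419 and 1419 units in WT_CD and 5166, 4930 and 4938 units in WT_MR, the latter a spread of 0.04 (SD, log2). The groups were far apart, with a 2.60-fold ratio and a change of 1.38 ± 0.28 that missed the threshold (limma adjusted p = 0.0831; n = 3 arrays per group). It passed in 4 of 21 alternatives: without KI_CD array 1, with either array weighting, and in a fit of only the 6 WT arrays. In the others it did not, and its adjusted p reached 0.263 at most. KI_CD gave 2748, 1391 and 1638 units and KI_MR 3285, 1708 and 2631 units. The KI groups overlapped, with a change of 0.41 ± 0.28, or 0.70 without KI_CD array 1. Every WT_MR array lay above every KI_MR array. In the order of means, KI_CD, WT_CD, KI_MR, WT_MR, the last pair was the 1 without overlap.

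**Figure D3:**
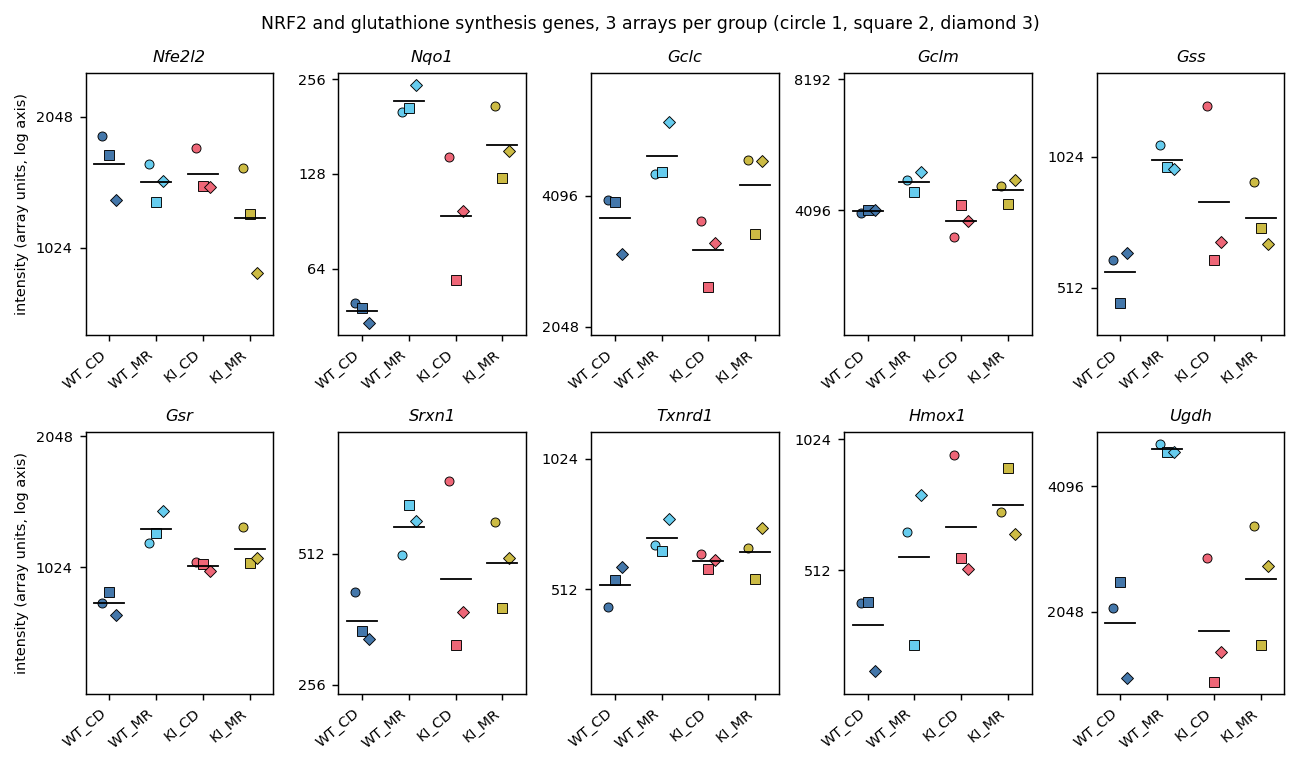
Intensity of each of the 10 genes in the 12 arrays, on log axes of array units whose ranges differ between panels, with arrays 1, 2 and 3 of a group as circle, square and diamond and the mean of the log values as a line. WT_MR lies above WT_CD without overlap in 8 panels, and KI_CD array 1 is the top of its group in 9.

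The lists of related genes, 3 in number, were read beside the members: NRF2 regulators, other NRF2 targets, and genes that use or break down glutathione. They were drawn up by role but with earlier results of these data known, so their counts are no independent test. Of 44 listed genes 40 were measured. None of the 10 regulators, which include Keap1, its ligase partners Cul3 and Rbx1, Bach1 and the small MAF genes, passed the limma test in any of the 7 comparisons. In WT_MR minus WT_CD their median was 0.16, 0 of 10 stood at an unadjusted p under 0.05, and those with the smallest p were Rbx1 (0.16 ± 0.08) and Nfe2l1 (0.20 ± 0.11), a relative of Nfe2l2. For diet in KI 3 of the 10 stood at an unadjusted p under 0.05, with 7.78% of all genes: Rbx1 (0.19 ± 0.08, and 0.19 without KI_CD array 1), Btrc (-0.31 ± 0.13, and -0.14) and Mafk (-0.22 ± 0.09, and -0.15). For genotype on CD 0 of 10 did, and the smallest p-values belonged to Mafk (0.19 ± 0.09, and 0.12 without that array) and Btrc (0.22 ± 0.13, and 0.05). Keap1 gave 246 to 276 units in WT_CD and 285 to 320 units in WT_MR, a difference of 0.18 ± 0.11. Nfe2l1 had the smallest p among regulators for genotype on MR (-0.31 ± 0.11, limma adjusted p = 0.222; n = 3 arrays per group).

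Of the 20 other NRF2 targets measured, 5 rose and 0 fell by limma with the diet in WT liver, 18 of 20 were above 0, and their median was 0.60. Of all genes, 0.326% passed, 0.211% passed as higher, and 47.3% were above 0. Slc7a11, the cystine importer that supplies cysteine for glutathione, gave 37, 38 and 31 units in WT_CD and 352, 125 and 341 units in WT_MR. WT_MR was at least 5.07-fold higher (2.81 ± 0.37, limma adjusted p = 0.00935; n = 3 arrays per group). The others were Abcc4, an efflux pump (1.49 ± 0.21, limma adjusted p = 0.0156), and Cbr1, a carbonyl reductase (1.38 ± 0.21, limma adjusted p = 0.0177). Aox1, an aldehyde oxidase (1.31 ± 0.20, limma adjusted p = 0.0207), and Gsta4, a glutathione transferase for lipid aldehydes (1.86 ± 0.33, limma adjusted p = 0.0424), completed them. Their arrays did not overlap between the groups, where 6.35% of all genes were higher without overlap. With a WT array left out, 0 to 3 of these related genes passed: 0 without WT_CD array 1 or WT_MR array 1, 1 without WT_CD array 3 or WT_MR array 2, 2 without WT_CD array 2, and 3 without WT_MR array 3. Without KI_CD array 1, 7 passed, and the calls among all genes went from 65 to 199.

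In knock-in liver Slc7a11 was the 1 related gene that rose with the diet, with 0.176% of all genes called. It gave 56, 30 and 29 units in KI_CD and 157, 230 and 224 units in KI_MR, at least 4.09-fold higher (2.46 ± 0.37, limma adjusted p = 0.0317; n = 3 arrays per group). It passed in 4 of the 12 fits that left out 1 array, without KI_CD array 1 (2.77) or without any of the WT_MR arrays, and its adjusted p reached 0.167 at most. It missed the threshold with the trended robust prior and in the fit of only the 6 KI arrays. Aox1 came next (1.17 ± 0.20, limma adjusted p = 0.0555) and passed without KI_CD array 1 (1.40, adjusted p = 0.00437) or without KI_MR array 2. The median of the 20 other targets was 0.33 with 18 above 0, and 0.49 without KI_CD array 1. Of all genes 42.8% were above 0. Among genes of glutathione use, Lap3, an aminopeptidase that can split dipeptides left by glutathione breakdown, was at -0.40 ± 0.10 (-0.37 without KI_CD array 1) and Ggct, which acts on gamma-glutamyl amino acids, at 0.37 ± 0.16 (0.47). Neither passed (limma adjusted p = 0.213 and 0.599; n = 3 arrays per group).

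Averaged over genotypes, 9 of the 40 related genes rose with restriction and 0 fell, with 1.21% of all genes called and 0.607% as higher. They were the other targets Slc7a11 (2.63 ± 0.26), Aox1 (1.24 ± 0.14), Abcc3 (1.10 ± 0.20), Ephx1 (0.95 ± 0.17), Cbr1 (0.92 ± 0.14), Abcc4 (0.88 ± 0.15), Blvrb (0.68 ± 0.10) and Tkt (0.56 ± 0.11), with limma adjusted p from 0.000959 to 0.0388. The ninth was Ggct (0.54 ± 0.11, limma adjusted p = 0.0415), the 1 of 10 genes of glutathione use and breakdown that passed. Ephx1 is the microsomal epoxide hydrolase, Abcc3 an efflux pump of the basolateral membrane, Blvrb a biliverdin reductase, and Tkt, transketolase, belongs to the pentose phosphate pathway that supplies NADPH. With KI_CD array 1 left out these 9 changes ran from 0.58 (Tkt) to 2.79 (Slc7a11), and 11 related genes passed. Calls among all genes went from 241 to 470 in that fit. Slc7a11, Aox1, Blvrb and Cbr1 passed in all 12 fits that left out 1 array. Fewer related genes passed without some arrays: 4 without KI_CD array 2, KI_MR array 1 or KI_MR array 3, and 5 without WT_CD array 1 or 3, WT_MR array 1 or KI_CD array 3.

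**Figure D4:**
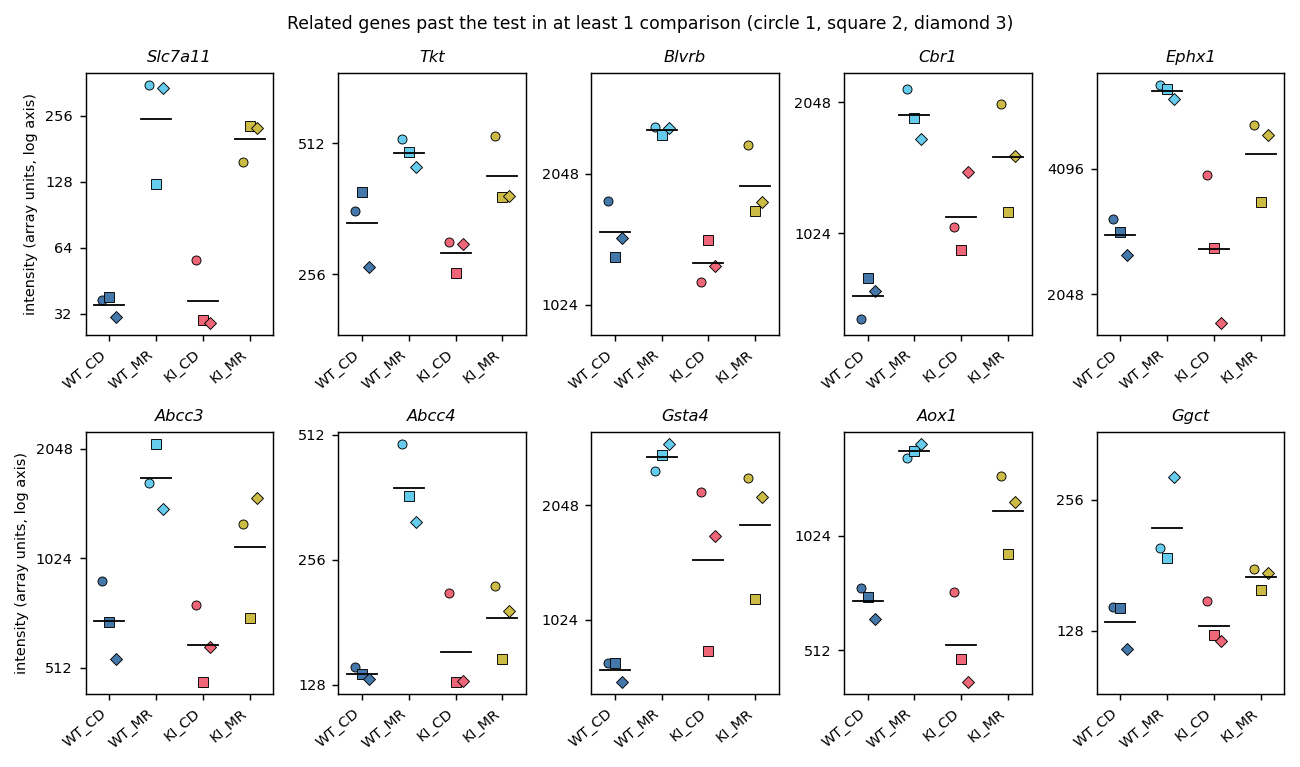
Intensity in the 12 arrays, drawn as for the 10 members, of the 10 related genes that passed the limma test in at least 1 comparison. Slc7a11 lies between 29 and 56 units in all CD arrays and between 125 and 352 units in all MR arrays.

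For genotype, 0 of 40 related genes passed by limma on CD, on MR, averaged over diets or in the interaction, with 4, 10, 7 and 7 of 40 at an unadjusted p under 0.05. The shares of all genes at that level were 11.2%, 14.1%, 22.0% and 4.13%. On CD the smallest p-values among other targets belonged to Cbr1 (0.61 ± 0.21, and 0.65 without KI_CD array 1) and Gsta4 (0.96 ± 0.33, and 0.67). Both were higher in KI_CD without overlap with WT_CD, as were 5 of the 40 related genes, with 19.0% of all genes without overlap in either direction. Among genes of glutathione use, Chac1, which breaks down glutathione in the cytosol, was at 0.87 ± 0.33, and 0.70 without KI_CD array 1 (limma adjusted p = 0.368; n = 3 arrays per group). On MR, 15 of the 40 related genes were lower and 1 higher in KI without overlap, with 16.3% of all genes without overlap in either direction. There 10 of the 40 were above 0, as were 37.4% of all genes. On MR, Abcc4 was at -1.05 ± 0.21 (limma adjusted p = 0.0632; n = 3 arrays per group), and passed without KI_CD array 1 (adjusted p = 0.0210). Gpx4, the peroxidase that reduces lipid peroxides with glutathione, was at -0.55 ± 0.15 (limma adjusted p = 0.135; n = 3 arrays per group). In the interaction Gsta4 was at -1.56 ± 0.46 and Abcc4 at -1.22 ± 0.30, with limma adjusted p of 1 and 0.966, and at -1.26 and -0.98 without KI_CD array 1. Averaged over diets without KI_CD array 1, 3 related genes passed for genotype, and 1 without KI_MR array 1. Of all 19938 genes, 693 and 325 were called in these 2 fits, against 561 with all arrays.

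The genes that are no member and whose log2 levels were most like those of Nqo1 over the 12 arrays were Gsta4 (Pearson r = 0.97), Cyp2a22 (0.94) and Dop1b (0.94), among 13090 genes with a mean log2 level of at least 6. Cyp2a22, a cytochrome P450, had mean intensities of 148 units in WT_CD, 2665 in WT_MR, 817 in KI_CD and 2488 in KI_MR. For Gclc they were Rab9 (0.91), Ces1g (0.90) and Ggct (0.88). For the mean standardised profile of the 10 members they were Plekha1 (0.95), Gstm1 (0.94) and Gstm4 (0.93). Gstm1, a glutathione transferase on the list of other targets, had means of 6345, 9936, 7003 and 8940 units in WT_CD, WT_MR, KI_CD and KI_MR. These values describe the 12 arrays, which share the 4 group differences, and carry no test.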

How the data were processed

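Liver RNA was labelled with biotin and hybridised to 12 arrays, 3 in each of 4 groups, per the labels. The deposited values are linear intensity values per probe set in whole numbers; the background correction, scaling and summarisation by the authors are not given in the sources used here, and no batch or date is given. Coarse rounding limits dim genes. Of 35512 probe sets, 21789 carried 1 gene symbol in the platform annotation, 1621 several and 12102 none, and 999 genes had more than 1 probe set, of which the brightest was kept. The Entrez identifier of 19856 genes was in the reference gene table. All value columns were mapped to samples by their labels.

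From these, log2 values were taken without further scaling and fitted with limma 3.58.1 (R 4.3.3): 4 group means, 8 residual and 3.14 prior degrees of freedom, 7 two-sided contrasts, and adjustment by Benjamini-Hochberg over all genes with a threshold of 0.05. With 3 arrays against 3, permuting exactly gives no two-sided p under 0.1, so that test was not used. In data simulated for KI_CD minus WT_CD over 19938 genes, changes of 0.5 (log2) were found in 53.3% of cases, of 1 in 85.3%, of 2 in 98% and of 4 in 100%, and 4.90% of calls were false. The simulated noise was normal with the pooled SD of each gene, changes were planted in randomly chosen genes, and no array stood apart. These rates check the fit and do not give its power for the members in the measured arrays, where KI_CD array 1 stood apart. Tables and figures used Python 3.11.15, pandas 2.3.3, numpy 2.4.6 and matplotlib 3.10.9.

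The members, gene lists and named genes were chosen with earlier results of these data known. Named are all 10 members, each related gene past the threshold and otherwise the 2 per list with the smallest p in a comparison, of which the text prints a part. Keap1, Alas2 and genes picked out beyond this rule were chosen after their values were seen. Dim groups were bounded by the lower quartile of gene levels of each array. These bounds cover dimness only and not the spread between arrays. Tried as alternatives were median centring, quantile normalization, a fit without the dimmest 25% of genes, averaging probe sets, a trended robust prior, array weights, replicate number as a block, only the 6 arrays compared, and each array left out. Weights fitted gene by gene were an addition made with the data in view, as the first had not converged.

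Replicate numbers were not treated as pairs in the reported fit. Over 18 pairs of same-numbered arrays, the correlation of deviations from the group means ran from -0.06 to 0.24. Its median was 0.099, and 9 were over 0.1. Arrays with different numbers were not compared in this way, so whether the numbers pair the samples was not tested.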

Additional observations from a re-analysis of the deposited data

How the results depend on the processing

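Of 1440 values of the 10 members over 70 results and their alternatives, 1355 kept their direction and side of the threshold, 32 passed it newly, 15 no longer passed, and 38 changed sign, all of the last without a call. Counts of members called were 7 with array weights and 4 with gene-by-gene weights for WT_MR minus WT_CD (2 as reported; 1 to 4 with an array left out), 2 and 1 for KI_MR minus WT_MR (0 as reported), 1 and 1 for KI minus WT averaged, and 6 and 6 for MR minus CD averaged (2 as reported; 1 to 5 with an array left out). The first weights gave 16.7 to WT_MR array 1 and had not converged. In these 4 comparisons, in the order given, they called 2204, 4612, 4801 and 1369 of all 19938 genes. The gene-by-gene weights called 564, 1514, 3097 and 875, and the reported fit 65, 94, 561 and 241. The counts of members and related genes under weights thus rose together with those of all genes. Counts of related genes were 17 and 12 for WT_MR minus WT_CD (5 as reported; 0 to 7 with an array left out), 13 and 3 for KI_MR minus WT_MR (0 to 1), 8 and 4 for KI minus WT averaged (0 to 3), 14 with array weights for MR minus CD averaged (9 as reported; 4 to 11), and 2 for KI_MR minus KI_CD with either weighting or without the dimmest 25% of genes, but 0 with only the 6 arrays compared (1 as reported; 0 to 2). With replicate number as a block, 1 member passed for WT_MR minus WT_CD, since Gsr missed the threshold (adjusted p = 0.0526). With it, 2 related genes passed for KI_MR minus WT_MR and 2 for KI minus WT averaged. Of all genes it called 177 and 960 in these comparisons, against 94 and 561 as reported. For KI_MR minus KI_CD the block, like the trended robust prior, called Aox1 in place of Slc7a11, whose adjusted p over all alternatives reached 0.212 at most. With only the 6 arrays compared, Gsr also missed it, while Gss and Ugdh passed.

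Signs changed for Gclm in the interaction (-0.034 and -0.027 with array and gene-by-gene weights), Gss for KI_MR minus KI_CD (0.15 and 0.14) and for KI minus WT averaged (-0.080 and -0.062), and Srxn1 for KI minus WT averaged (-0.026 with quantile normalization). With an array left out, values crossed 0 over these ranges: for KI_CD minus WT_CD, Nfe2l2 from -0.21 to 0.033, Srxn1 from -0.059 to 0.57 and Ugdh from -0.35 to 0.14; for KI_MR minus KI_CD, Gss from -0.34 to 0.25, Srxn1 from -0.12 to 0.50 and Txnrd1 from -0.020 to 0.18; for KI_MR minus WT_MR, Txnrd1 from -0.19 to 0.0031; for the interaction, Nfe2l2 from -0.39 to 0.0054, Gclc from -0.12 to 0.21 and Gclm from -0.054 to 0.068; for KI minus WT averaged, Gss from -0.14 to 0.16, Srxn1 from -0.17 to 0.15 and Txnrd1 from -0.0055 to 0.092. The causes were not tested.

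Signal over background limits Nqo1, which was dim in WT_CD, and Slc7a11, which was dim in both control-diet groups, so that their ratios to those groups are bounds.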
